A study of Mus musculus with 10 samples.

Results

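The low-density lipoprotein (LDL) receptor family was described here through 9 of its members, Vldlr, Lrp8, Lrp1, Lrp4, Lrp5, Lrp6, Lrp10, Lrp11 and Lrp12, taken by gene symbol from the 57185 genes with counts in the left ventricle of mice with dilated cardiomyopathy. The members were chosen by their family and by the edgeR fold changes and calls of this genotype comparison, which were already known, Lrp8 and Lrp11 in particular for their lower counts, so the genotype differences of the 9 genes are given as a description and not as a test. All 9 were annotated as protein coding, and all 9 passed the filter on low counts.

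The mice lacked muscle LIM protein (MLPKO, the product of Csrp3), a sarcomere-associated protein whose loss dilates the heart, and carried floxed alleles of RAD (the product of Rrad), an inhibitor of the cardiac L-type calcium channel. The 5 control mice (MLPKO), male like the others, carried these alleles and no Cre, and the 5 cRADΔ/Δ-MLPKO mice also carried MerCreMer under the MYH6 promoter, which drives a tamoxifen-dependent Cre in cardiomyocytes and leaves Rrad intact in the other cells of the ventricle. All 10 received tamoxifen at 100 mg/kg once at 10 weeks of age, and hearts were collected 1 month later, at an age the labels give as 16 weeks. PolyA-selected RNA of the apical ventricle was sequenced as 1 library per mouse, each mouse being 1 replicate.

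Members of the LDL receptor family are single-pass membrane proteins with cysteine-rich ligand-binding repeats, which bring lipoproteins, proteases and their inhibitors into the cell or pass a signal across the membrane. VLDLR and LRP8 (also called ApoER2) bind apolipoprotein E and reelin, LRP1 clears many ligands, LRP4 receives agrin at the neuromuscular junction, and LRP5 and LRP6 are the coreceptors of frizzled in Wnt signalling. LRP10, LRP11 and LRP12 are more distant members with fewer known ligands. In the heart VLDLR is known for delivering triglyceride-rich lipoproteins to muscle together with lipoprotein lipase.

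Levels below are counts per 1000000 counts of the library (CPM), with library totals scaled by TMM normalization, and are given as mean ± SD (n = 5 mice per genotype). Libraries held 33457406 to 49965101 counts each. A log2 fold change is cRADΔ/Δ-MLPKO minus MLPKO, with its standard error (SE), and a gene is called where the adjusted p of the quasi-likelihood test of edgeR over 13451 genes was under 0.05. The whole-gene counts of both targeted genes overlapped between the genotypes. Rrad was 262, 268, 140, 163 and 282 CPM in MLPKO mice 1 to 5 and 196, 135, 202, 146 and 176 CPM in cRADΔ/Δ-MLPKO mice 1 to 5 (log2 fold change -0.38, SE 0.20, edgeR adjusted p = 0.29). Csrp3 still had counts in every mouse, with 1776 ± 917 and 840 ± 197 CPM (log2 fold change -1.08, SE 0.29, edgeR adjusted p = 0.0666). The mean in cRADΔ/Δ-MLPKO was 47.3% of that in MLPKO, and the alternative fit by DESeq2 called Csrp3 (DESeq2 adjusted p = 0.0361). The deleted exons were not counted separately, so these counts check neither deletion, and the genotypes are taken from the labels. The study itself reports by western blot that RAD protein was lost from cRADΔ/Δ-MLPKO hearts after tamoxifen.

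The tissue was checked against marker genes. The summed level of 8 cardiomyocyte markers was 80296 to 89560 CPM in MLPKO and 65393 to 80865 CPM in cRADΔ/Δ-MLPKO. The 7 endothelial markers summed to 728 to 827 CPM and to 855 to 991 CPM, and the 8 smooth muscle and pericyte markers to 546 to 708 CPM and to 723 to 948 CPM, in both cases without overlap, although Tagln of the latter list was at most 0.347 CPM. The markers of the latter list did not move together. Rgs5 (330 ± 36.4 and 447 ± 47.5 CPM) and Acta2 (66.3 ± 21.4 and 156 ± 52.5 CPM) were called higher in cRADΔ/Δ-MLPKO. Kcnj8 and Notch3 had somewhat higher means and were not called. Myh11 (50.9 and 51.1 CPM) and Pdgfrb (77.9 and 77.2 CPM) were level. Cnn1 was lower (16.1 ± 21.5 and 3.57 ± 1.77 CPM), with 54.4 CPM in MLPKO mouse 2, and was not called. The sums of fibroblast markers (1088 to 1623 against 944 to 1649 CPM) and macrophage markers (114 to 159 against 140 to 241 CPM) overlapped. Of the 7 fibroblast markers only Dpt was called, higher in cRADΔ/Δ-MLPKO (53.8 ± 4.75 and 103 ± 18.8 CPM). All 7 macrophage markers had higher means in cRADΔ/Δ-MLPKO, with a mean sum 1.38 times that of MLPKO. None of them was called by edgeR, and DESeq2 called Adgre1 and Csf1r. Adipocyte markers were near 0 in 9 mice and summed to 26.0 CPM in cRADΔ/Δ-MLPKO mouse 3. The 3 atrial markers summed to 2.75 to 6.24 CPM in MLPKO and to 2.24 to 24.5 CPM in cRADΔ/Δ-MLPKO, with the highest sum in cRADΔ/Δ-MLPKO mouse 1, where Myl4 was 19.6 CPM and Myl7 was 4.55 CPM, while Sln was at most 0.359 CPM in all 10 mice. Without cRADΔ/Δ-MLPKO mouse 1 the log2 fold change was -2.93 for Lrp8 and -1.12 for Lrp11, and without mouse 3 of that genotype it was -2.59 and -1.07. In bulk tissue, fewer cells of a type and less RNA per cell cannot be told apart, and the part of these marker differences in the values below was not tested.

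The 2 members whose level differed most between the genotypes were Lrp8 and Lrp11, and the sequence upstream of each is shown to place these values at a locus. Both windows are the 250 bases before the start of the canonical GENCODE transcript, on the plus strand of GRCm39, chr4:107658816-107659065 for Lrp8 and chr10:7465296-7465545 for Lrp11. Capitals mark matches to the GC box (GGGCGG), the CCAAT box (CCAAT), the TATA box (TATAAA) or a GATA motif (GATAAG) on either strand.
Lrp8: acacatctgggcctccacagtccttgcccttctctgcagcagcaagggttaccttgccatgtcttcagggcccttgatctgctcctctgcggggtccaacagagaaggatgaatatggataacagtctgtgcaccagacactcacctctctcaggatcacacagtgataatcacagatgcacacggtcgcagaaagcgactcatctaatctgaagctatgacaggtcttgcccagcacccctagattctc
Lrp11: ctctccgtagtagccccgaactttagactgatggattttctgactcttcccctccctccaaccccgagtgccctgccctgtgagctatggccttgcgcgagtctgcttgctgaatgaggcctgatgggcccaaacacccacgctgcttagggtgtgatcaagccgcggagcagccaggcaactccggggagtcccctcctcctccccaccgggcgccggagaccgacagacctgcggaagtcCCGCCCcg
The Lrp8 window held none of the 4 motifs and had 52.4% G and C. The Lrp11 window had 64.0% G and C and held 1 GC box, on the minus strand at position -8 from the start site, which overlapped no other motif. Among the same windows of 13040 protein-coding genes tested, 48.8% held a GC box, 35.6% a CCAAT box, 7.35% a TATA box and 4.95% a GATA motif. A match is a run of letters and not a shown binding site. The exons of Lrp8os3, a long noncoding RNA transcribed from the opposite strand, covered 105 of the 250 bases before Lrp8, whereas no exon of Pcmt1, which overlaps Lrp11 at its other end, lay in the Lrp11 window.

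Lrp8, the reelin and apolipoprotein E receptor on chromosome 4 (ENSMUSG00000028613, chr4:107659066-107734038), was low and scattered in MLPKO and lower in cRADΔ/Δ-MLPKO. Its level was 14.3, 42.1, 7.42, 4.51 and 24.2 CPM in MLPKO mice 1 to 5 and 4.82, 2.96, 2.16, 2.05 and 2.49 CPM in cRADΔ/Δ-MLPKO mice 1 to 5. MLPKO mouse 2 was the highest of all, and the genotypes overlapped, because MLPKO mouse 4 was below cRADΔ/Δ-MLPKO mouse 1. The means were 18.5 ± 15.2 and 2.89 ± 1.13 CPM, so that the mean of cRADΔ/Δ-MLPKO was 15.6% of that of MLPKO (log2 fold change -2.68, SE 0.54). The values rested on 169 to 1328 counts per mouse in MLPKO and 79 to 161 counts in cRADΔ/Δ-MLPKO. Without MLPKO mouse 2 the log2 fold change was -2.14, and without MLPKO mouse 4 it was -2.93.

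Lrp8 was called by edgeR (adjusted p = 0.0294), a call that selected the gene and supports nothing beyond it. The call did not hold under every omission of 1 mouse. The edgeR adjusted p was 0.0575 without MLPKO mouse 1, 0.0722 without MLPKO mouse 5, and 0.0633, 0.0745, 0.0719 and 0.0783 without cRADΔ/Δ-MLPKO mouse 2, 3, 4 and 5 in turn. It stayed under 0.05 when any of the other 4 mice was left out. In the fits that lost the call, the log2 fold change of Lrp8 was -2.76 to -2.56. Calls over all genes were 50 to 142 in those fits, against 369 with all mice. Over the 10 fits without 1 mouse the log2 fold change of Lrp8 lay between -2.93 and -2.14.

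The antisense transcript Lrp8os3 shared 263 bases with the exons of Lrp8, 2.02% of their length. Its level was 0.832, 0.824, 0.711, 0.480 and 0.706 CPM in MLPKO mice 1 to 5 and 0.479, 0.0218, 0.164, 0.178 and 0.136 CPM in cRADΔ/Δ-MLPKO mice 1 to 5. The genotypes did not overlap, narrowly, and the gene was not called (log2 fold change -1.91, SE 0.49, edgeR adjusted p = 0.0585). It rested on 1 to 36 counts per mouse, and since the strand setting of the counting was not given, reads of the shared bases cannot be assigned to either gene. The protein-coding genes tested that lie nearest to Lrp8 on either side, Magoh (a subunit of the exon junction complex, log2 fold change 0.03, SE 0.11) and Ndc1 (a nucleoporin, log2 fold change -0.02, SE 0.08), were not called.

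Lrp11, on chromosome 10 (ENSMUSG00000019796, chr10:7465545-7504783), was the only member whose genotypes did not overlap. Its level was 15.7, 13.4, 10.9, 9.92 and 15.0 CPM in MLPKO mice 1 to 5 and 7.12, 5.01, 6.39, 6.15 and 6.42 CPM in cRADΔ/Δ-MLPKO mice 1 to 5. Every MLPKO mouse was above every cRADΔ/Δ-MLPKO mouse. The means were 13.0 ± 2.5 and 6.22 ± 0.768 CPM, the latter 47.9% of the former (log2 fold change -1.06, SE 0.14). Counts per mouse were 372 to 679 in MLPKO and 230 to 284 in cRADΔ/Δ-MLPKO. The fold change stayed between -1.15 and -0.99 when each mouse was left out in turn.

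Pcmt1, which encodes a protein repair methyltransferase, lies on the strand opposite to Lrp11, and 1173 bases of its exons, 15.14% of the exons of Lrp11, are shared. Pcmt1 had 40943 counts in all against 3969 for Lrp11. Its level was 105 ± 9.3 CPM in MLPKO and 92.7 ± 2.77 CPM in cRADΔ/Δ-MLPKO, without overlap and not called (log2 fold change -0.18, SE 0.06, edgeR adjusted p = 0.121). With the strand setting not given, the share of Pcmt1 reads in the Lrp11 count cannot be told apart. Nup43 (a nucleoporin, log2 fold change -0.48, SE 0.15) and Lats1 (a Hippo pathway kinase, log2 fold change -0.02, SE 0.07), the next genes tested on that side, were not called. On the other side the nearest genes tested were Ulbp1 (log2 fold change -0.11, SE 0.18) and Cnksr3 (log2 fold change 0.55, SE 0.15, edgeR adjusted p = 0.065). Neither was called.

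**Figure D1:**
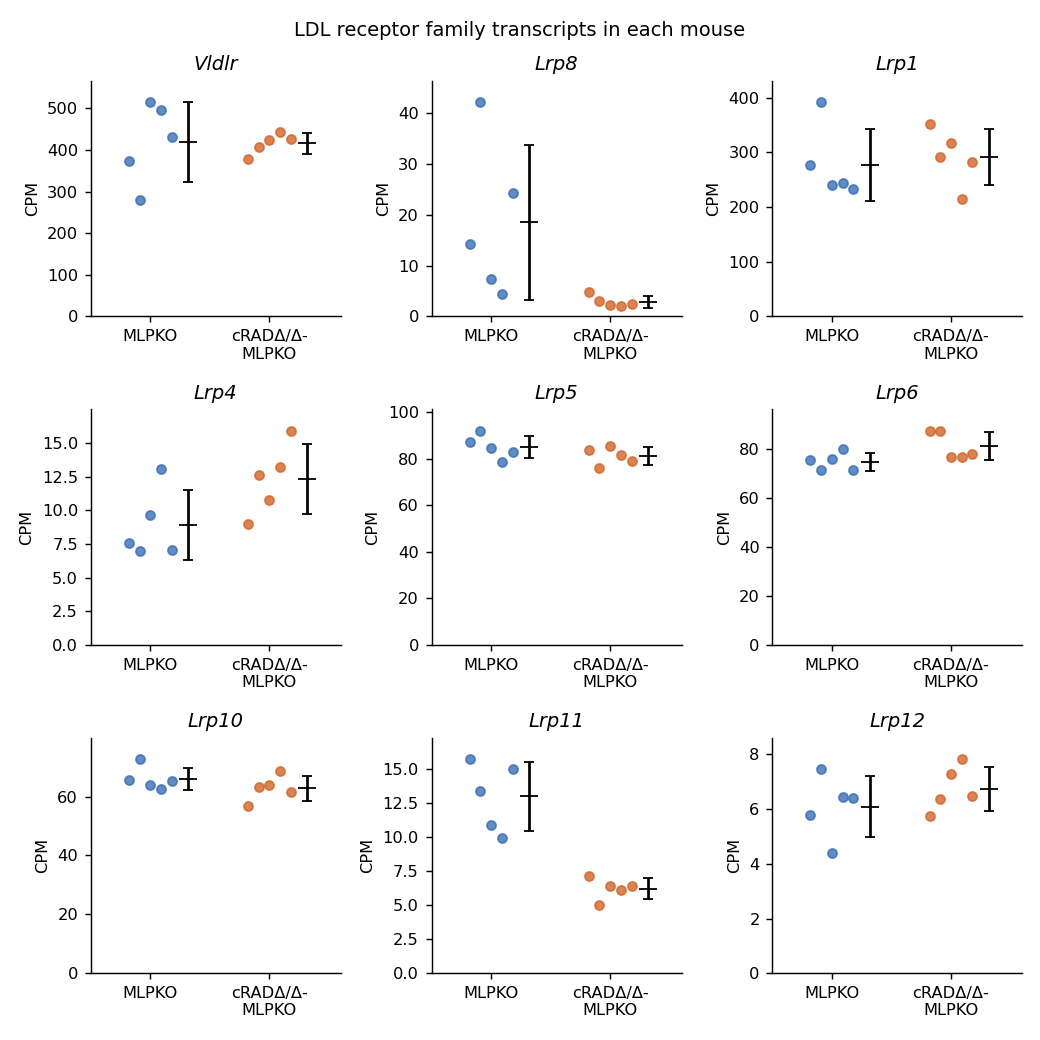
Level in CPM (vertical axes, each from 0) of the 9 family members in each of the 5 MLPKO and 5 cRADΔ/Δ-MLPKO mice, with black bars for the mean ± SD. The points of Lrp11 form separate groups, those of Lrp8 run from 4.51 to 42.1 in MLPKO and from 2.05 to 4.82 in cRADΔ/Δ-MLPKO, and those of the other 7 members overlap.

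Vldlr, the lipoprotein receptor closest in structure to LRP8, was at similar means in both genotypes. Its level was 373, 279, 514, 496 and 431 CPM in MLPKO mice 1 to 5 and 378, 406, 424, 443 and 427 CPM in cRADΔ/Δ-MLPKO mice 1 to 5. The lowest value was that of MLPKO mouse 2, the mouse with the most Lrp8, and the 5 cRADΔ/Δ-MLPKO mice lay inside the range of the MLPKO mice. The means were 419 ± 95.8 and 415 ± 24.6 CPM (log2 fold change -0.01, SE 0.14). The ratio of Lrp8 to Vldlr was taken after dividing the CPM of each gene by the length of its annotated exons in kilobases. On that scale it was 0.00708 to 0.118 in MLPKO and 0.00361 to 0.00993 in cRADΔ/Δ-MLPKO. Vldlr transcripts were thus the more abundant of the reelin receptors in every mouse.

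Lrp1, the multiligand endocytic receptor, was 276, 391, 240, 244 and 233 CPM in MLPKO mice 1 to 5 and 352, 291, 316, 215 and 283 CPM in cRADΔ/Δ-MLPKO mice 1 to 5. MLPKO mouse 2 stood above the other 9, and the genotypes overlapped (277 ± 66.1 and 291 ± 50.8 CPM, log2 fold change 0.07, SE 0.16). Without MLPKO mouse 2 the log2 fold change was 0.23.

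Lrp4, the agrin receptor that activates the kinase MuSK, was the member with the largest difference in the other direction, though not a called one. Its level was 7.58, 6.97, 9.67, 13.1 and 7.06 CPM in MLPKO mice 1 to 5 and 8.98, 12.6, 10.8, 13.2 and 15.9 CPM in cRADΔ/Δ-MLPKO mice 1 to 5. MLPKO mouse 4 had nearly the level of the second-highest cRADΔ/Δ-MLPKO mouse, and the genotypes overlapped. The means were 8.88 ± 2.61 and 12.3 ± 2.61 CPM (log2 fold change 0.47, SE 0.20), and the fold change was 0.65 without MLPKO mouse 4, the only omission under which Lrp4 was called.

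The Wnt coreceptors, like Lrp10 among the distant members, varied little between mice. Lrp5 was 87.1, 91.9, 84.4, 78.7 and 83.0 CPM in MLPKO mice 1 to 5 and 83.8, 75.8, 85.4, 81.5 and 78.9 CPM in cRADΔ/Δ-MLPKO mice 1 to 5 (85.0 ± 4.89 and 81.1 ± 3.84 CPM, log2 fold change -0.07, SE 0.06). Lrp6 was 75.5, 71.6, 76.1, 80.3 and 71.6 CPM and 87.6, 87.4, 76.8, 77.1 and 78.1 CPM (75.0 ± 3.64 and 81.4 ± 5.59 CPM, log2 fold change 0.12, SE 0.06). Lrp5 and Lrp6 varied by 4.74% to 6.86% of their means within a genotype, against 82.1% for Lrp8 in MLPKO. The ratio of Lrp5 to Lrp6 was taken after dividing the CPM of each gene by the length of its annotated exons in kilobases. On that scale it was 1.79 ± 0.171 in MLPKO and 1.57 ± 0.147 in cRADΔ/Δ-MLPKO. The ranges, 1.54 to 2.01 and 1.36 to 1.74, overlapped.

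Of the distant members, Lrp10, an endocytic receptor of the trans-Golgi network and endosomes, was 65.5, 72.6, 63.8, 62.7 and 65.2 CPM in MLPKO mice 1 to 5 and 56.8, 63.3, 63.8, 68.6 and 61.5 CPM in cRADΔ/Δ-MLPKO mice 1 to 5. Its genotypes overlapped (66.0 ± 3.89 and 62.8 ± 4.26 CPM, log2 fold change -0.07, SE 0.06). Lrp12, a receptor with LDL receptor and CUB domains, was 5.80, 7.45, 4.40, 6.43 and 6.40 CPM and 5.74, 6.36, 7.27, 7.82 and 6.49 CPM, again with overlap (6.10 ± 1.12 and 6.74 ± 0.811 CPM, log2 fold change 0.15, SE 0.14).

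Across the family, 2 of 9 members were called, both lower in cRADΔ/Δ-MLPKO, where 2.74% of all genes tested were called and 1.8% were called lower. Only Lrp11 of the 9 members had no overlap between the genotypes, against 6.62% of all genes. These contrasts chose the members, and nothing is read from the counts. The median log2 fold change of the 9 members was -0.01, and that of all genes tested was 0.01. The 7 members not called lay between -0.07 and 0.47, 3 below 0 and 4 above. All genes called split into 242 lower and 127 higher with TMM, and into 207 lower and 175 higher with upper-quartile scaling. DESeq2 called the same 2 members and 9.65% of all genes.

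**Figure D2:**
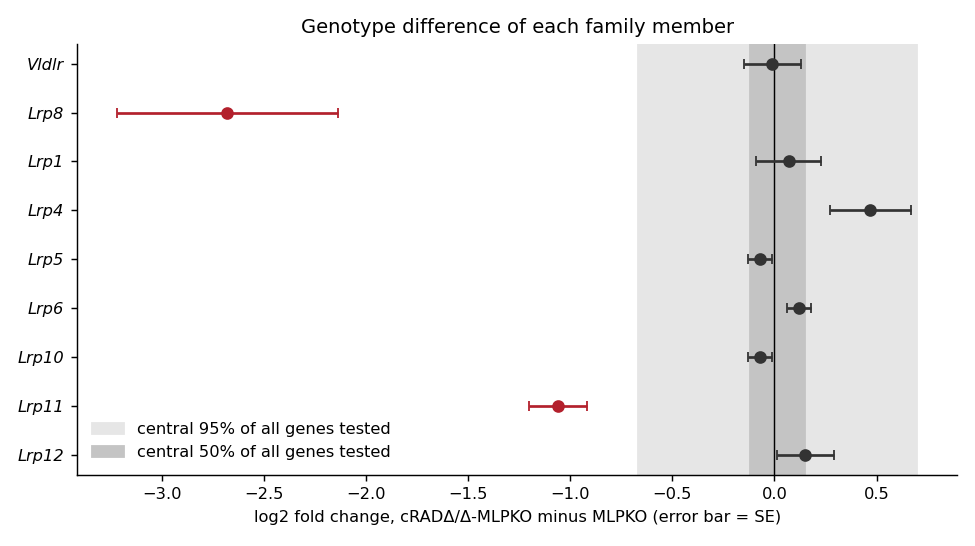
Log2 fold change (horizontal axis, cRADΔ/Δ-MLPKO minus MLPKO) of each member, with bars for the SE and red points for the 2 called members. The shaded bands are the central 50% (-0.12 to 0.15) and 95% (-0.67 to 0.70) of all 13451 genes tested, and Lrp8 at -2.68 and Lrp11 at -1.06 lie outside both.

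To compare levels between members, CPM were divided by the length of the annotated exons in kilobases (CPM per kb). Vldlr was first at 41.0 CPM per kb over the 10 mice, followed by Lrp1 (13.9), Lrp10 (11.3), Lrp5 (8.45), Lrp6 (5.07), Lrp12 (1.32), Lrp11 (1.24), Lrp4 (0.985) and Lrp8 (0.820). Vldlr made up 48.1% ± 8.78 of the summed CPM per kb of the 9 members in MLPKO and 49.1% ± 2.55 in cRADΔ/Δ-MLPKO. Lrp8 made up 1.72% ± 1.47 and 0.268% ± 0.108.

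Neighbours in this order were compared within each mouse by a two-sided exact sign-flip permutation test with Benjamini-Hochberg adjustment over the 8 pairs, for which the smallest possible unadjusted p over 10 mice is 0.00195. Vldlr exceeded Lrp1 in 10 of 10 mice by 1.57 ± 0.49 (SD) on the log2 scale of CPM per kb (exact permutation adjusted p = 0.00391). The steps from Lrp10 to Lrp5 (0.42 ± 0.09), from Lrp5 to Lrp6 (0.74 ± 0.16) and from Lrp6 to Lrp12 (1.95 ± 0.27) had the same adjusted p and the same sign in all 10 mice. Lrp1 exceeded Lrp10 in 8 of 10 mice by 0.28 ± 0.30 (exact permutation adjusted p = 0.0312). That step lost its call, at 0.22 to 0.28, without MLPKO mouse 1 or 2 or without cRADΔ/Δ-MLPKO mouse 1, 2, 3 or 5.

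Over the 10 mice together, no step among the last 4 members passed the test. The difference was 0.19 ± 0.70 from Lrp12 to Lrp11 (exact permutation adjusted p = 0.41), 0.27 ± 0.96 from Lrp11 to Lrp4 (adjusted p = 0.41 by the same permutation test) and 1.01 ± 1.91 from Lrp4 to Lrp8 (permutation adjusted p = 0.169). These steps changed sign between the genotypes, so the pooled spread includes the genotype difference. The step from Lrp12 to Lrp11 was -0.42 ± 0.34 in MLPKO and 0.79 ± 0.27 in cRADΔ/Δ-MLPKO, where it was positive in 5 of 5 mice. That from Lrp11 to Lrp4 was 1.04 ± 0.66 in MLPKO, positive in 5 of 5 mice, and -0.49 ± 0.42 in cRADΔ/Δ-MLPKO. That from Lrp4 to Lrp8 was -0.39 ± 1.66 in MLPKO and 2.41 ± 0.74 in cRADΔ/Δ-MLPKO, where it was positive in 5 of 5 mice. Within 1 genotype the smallest p that the exact permutation test allows is 0.0625, so these values have no test. Within MLPKO the order of these 4 by mean level per kb was Lrp11, Lrp8, Lrp12 and Lrp4. In cRADΔ/Δ-MLPKO it was Lrp12, Lrp4, Lrp11 and Lrp8. The first 5 places were the same in both genotypes. With the longest transcript as the length in place of all exons, Lrp4 and Lrp8 exchanged places.

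**Figure D3:**
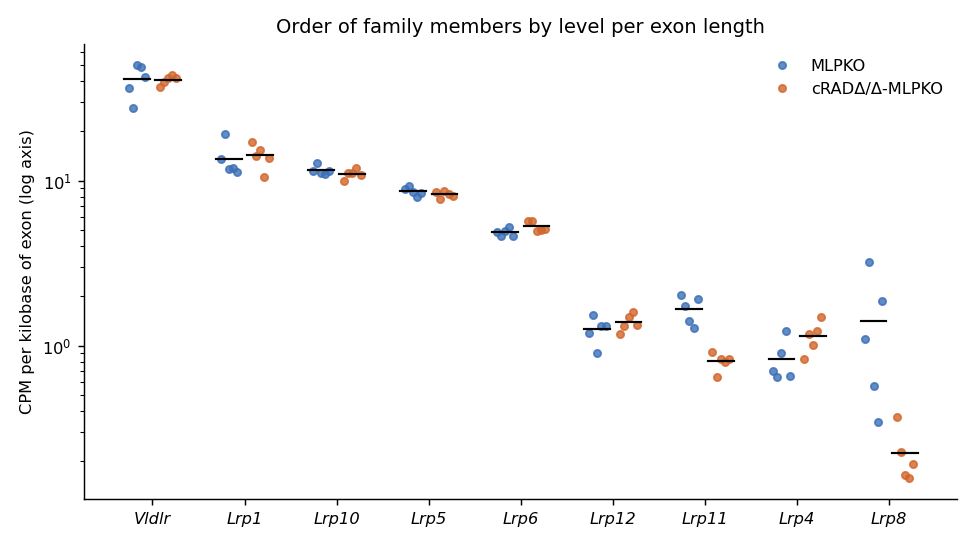
CPM per kilobase of annotated exon (log axis) of each member in each mouse, members ordered by their mean over the 10 mice, with short lines for the genotype means. The first 5 members keep their order in both genotypes, and the order of the last 4 differs between them. Lrp8 ranges from 0.157 to 3.23 CPM per kb and lies below the other members in every cRADΔ/Δ-MLPKO mouse.

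Variation between mice of the same genotype was described by the deviation of each mouse's log2 CPM from the mean of its genotype, over the 10 mice. These correlations have no p, as the genes were picked as the most similar of all genes tested, share the libraries, and lean on few mice. The 5 genes most like Lrp8 were Itga9 (Pearson r 0.99, Spearman rho 0.98), an integrin subunit, Usp47 (r 0.99, rho 0.98), a deubiquitinase, Clic5 (r 0.98, rho 0.98), a chloride intracellular channel protein, Hspa13 (r 0.98, rho 0.99), a member of the heat shock protein 70 family, and Myot (r 0.98, rho 0.95), a Z-disc protein. Without MLPKO mice 2 and 4, the mice farthest from the median of Lrp8, r was 0.95 to 0.98 for these genes. Itga9 was 244 ± 89.9 CPM in MLPKO and 122 ± 24.4 CPM in cRADΔ/Δ-MLPKO (log2 fold change -0.99, SE 0.23, edgeR adjusted p = 0.0461), and the other 4 genes were not called. The call of Itga9 held in 3 of the 10 fits without 1 mouse, in which its adjusted p lay between 0.0145 and 0.111.

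Among transcripts used as markers of ventricular stress, the deviations of Lrp8 went with those of Nppa, which encodes atrial natriuretic peptide (r 0.96, rho 0.98, and r 0.93 without MLPKO mice 2 and 4), and of Ankrd1, a stretch-responsive ankyrin repeat protein (r 0.93, rho 0.94, and 0.87). For Acta1, skeletal alpha-actin, r was 0.87 (rho 0.87, and 0.74), and for Nppb, brain natriuretic peptide, r was 0.81 (rho 0.71, and 0.54). Nppa was 955, 2435, 230, 106 and 1784 CPM in MLPKO mice 1 to 5 and 413, 429, 179, 146 and 164 CPM in cRADΔ/Δ-MLPKO mice 1 to 5. The order of the MLPKO mice by Nppa, mouse 2, 5, 1, 3 and 4, was the order of the same mice by Lrp8. The r of Myh7 was 0.70 (rho 0.53), and that of Ankrd2 fell from 0.58 to -0.04 without MLPKO mice 2 and 4 and so rests on those mice.

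Within the family, Lrp8 was most like Lrp11 (r 0.65, rho 0.67, and r 0.60 without MLPKO mice 2 and 4) and was opposed to Vldlr (r -0.86, rho -0.78) and to Lrp4 (r -0.82, rho -0.84). Without the 2 mice farthest on each x axis these last r values were -0.75, with the farthest taken by Vldlr, and -0.71, with the farthest taken by Lrp8. Over the 36 pairs of members r ran from -0.86 to 0.71 with a median of 0.025, and 19 were positive. Lrp11 was most like Zfp710 (r 0.96, rho 0.92), Zfp64 (r 0.92, rho 0.77), Btd (r 0.92, rho 0.85), Rgp1 (r 0.92, rho 0.88) and Abi2 (r 0.90, rho 0.90), for which r was 0.78 to 0.90 without MLPKO mouse 4 and cRADΔ/Δ-MLPKO mouse 2. None of these 5 genes was called. For Lrp11 and Nppa r was 0.63 (rho 0.59), the highest r among the stress transcripts, while rho was higher for Acta1 (0.68) and Ankrd1 (0.61). With Lrp11 r was 0.55 for Acta1, 0.53 for Ankrd1, 0.45 for Myh7, 0.26 for Nppb and 0.21 for Ankrd2.

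**Figure D4:**
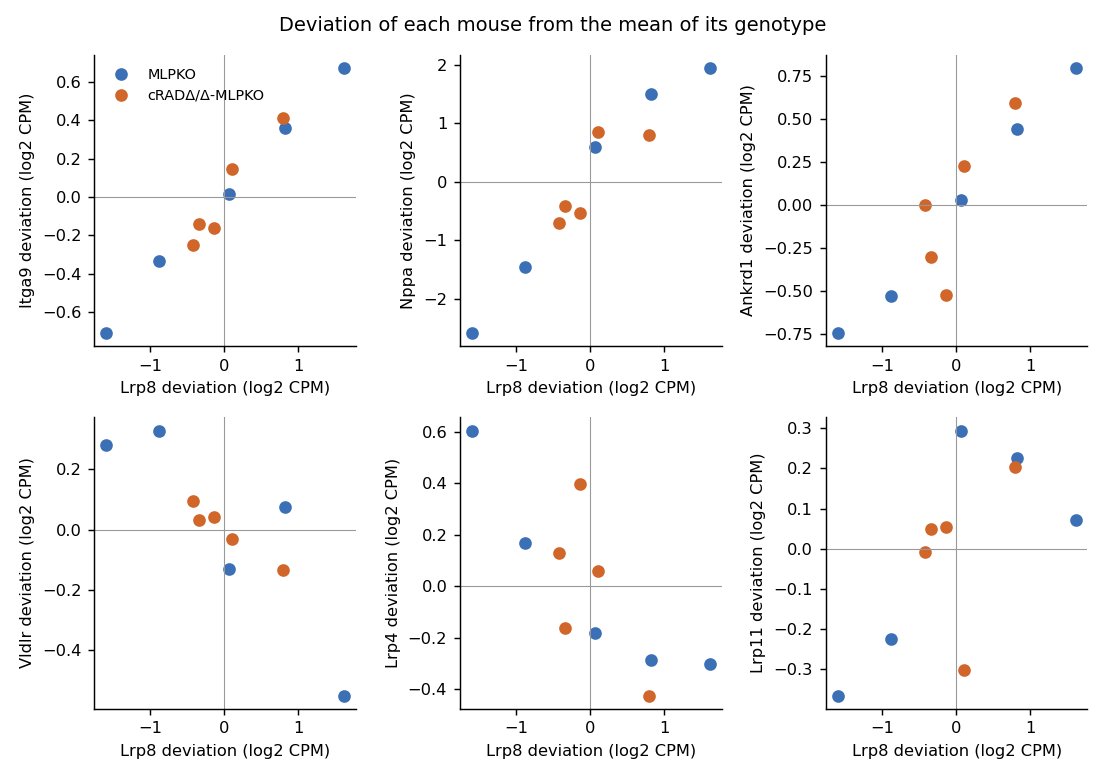
Deviation of each mouse from the mean of its genotype in log2 CPM, Lrp8 on the horizontal axes and Itga9, Nppa, Ankrd1, Vldlr, Lrp4 or Lrp11 on the vertical axes, with 5 mice per genotype. Itga9 (r 0.99), Nppa (r 0.96) and Ankrd1 (r 0.93) go up with Lrp8, Vldlr (r -0.86) and Lrp4 (r -0.82) go down, and Lrp11 (r 0.65) is looser.

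The pathways in which these receptors act were described by 7 lists holding 165 genes, of which 131 were tested. In all, 2 genes fell and 3 rose, 3.82% of those tested against 2.74% of all genes, and 31 had an unadjusted p under 0.05, as had 21.6% of all genes. Among other proteins with LDL receptor repeats, 1 of 10 genes tested fell and none rose. This was Sorl1, a sorting receptor, with 62.9, 92.2, 57.3, 47.0 and 54.3 CPM in MLPKO mice 1 to 5 and 47.0, 39.9, 26.8, 31.3 and 32.7 CPM in cRADΔ/Δ-MLPKO mice 1 to 5 (log2 fold change -0.82, SE 0.19, edgeR adjusted p = 0.0441). The genotypes met at 47.0 CPM. Hspg2, the basement membrane proteoglycan perlecan (812 ± 147 and 791 ± 46.4 CPM, log2 fold change -0.04, SE 0.11), and Corin, the protease that activates natriuretic peptides (220 ± 38.6 and 203 ± 33.5 CPM, log2 fold change -0.11, SE 0.14), were the most abundant and were not called. The median of this list was -0.14.

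Of 14 ligands tested, 2 rose and none fell, with a median of -0.10. Apoe, the lipoprotein ligand of the family, was 254, 253, 254, 280 and 298 CPM in MLPKO mice 1 to 5 and 329, 370, 379, 308 and 382 CPM in cRADΔ/Δ-MLPKO mice 1 to 5 (log2 fold change 0.40, SE 0.08, edgeR adjusted p = 0.0265). Thbs2, a matricellular thrombospondin cleared through LRP1, was 14.6, 12.9, 20.1, 21.8 and 13.2 CPM and 26.6, 32.4, 27.9, 30.2 and 34.4 CPM (log2 fold change 0.87, SE 0.15, edgeR adjusted p = 0.0196). Neither gene overlapped between the genotypes. Lpl, lipoprotein lipase, was 4440 CPM in MLPKO and was not called (log2 fold change 0.06, SE 0.12), nor was Clu, clusterin (866 ± 266 and 564 ± 86.3 CPM, log2 fold change -0.62, SE 0.18, edgeR adjusted p = 0.084), whose genotypes overlapped.

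Of 20 chaperones, adaptors, kinases and turnover factors tested, 1 fell and 1 rose, with a median of 0.0. Dok7, the adaptor that activates MuSK downstream of LRP4, was 45.6, 69.7, 50.1, 44.8 and 63.0 CPM in MLPKO mice 1 to 5 and 27.6, 40.3, 32.7, 32.2 and 32.5 CPM in cRADΔ/Δ-MLPKO mice 1 to 5 (log2 fold change -0.72, SE 0.14, edgeR adjusted p = 0.0239). Adam10, a protease that sheds membrane proteins including family members, was 55.0 ± 0.679 and 64.0 ± 3.12 CPM (log2 fold change 0.22, SE 0.05, edgeR adjusted p = 0.0403). Neither overlapped between the genotypes. Crk, a signalling adaptor (105 CPM in MLPKO, log2 fold change 0.0, SE 0.06), and Furin, the proprotein convertase (111 CPM in MLPKO, log2 fold change -0.05, SE 0.10), were the most abundant and were not called.

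The other lists held no gene called by edgeR. Among 31 Wnt ligands, frizzled receptors and coreceptor modulators tested, 9 had an unadjusted p under 0.05 and DESeq2 called 1 lower and 3 higher. The most abundant were Kremen1, a Dickkopf receptor that acts on LRP6 (422 ± 158 and 274 ± 22.2 CPM, log2 fold change -0.62, SE 0.20, edgeR adjusted p = 0.0995), and the frizzled receptor Fzd4 (log2 fold change 0.20, SE 0.08, edgeR adjusted p = 0.167). Of 19 beta-catenin signalling genes tested, 3 had an unadjusted p under 0.05 and DESeq2 called none. Ctnnb1, beta-catenin itself, had a log2 fold change of -0.01 (SE 0.05), and the casein kinase Csnk1a1 one of -0.09 (SE 0.06).

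Of 31 genes of sterol synthesis and its control, all tested, 3 had an unadjusted p under 0.05 and DESeq2 called 1 lower, Insig2, which retains the sterol sensor in the endoplasmic reticulum (log2 fold change -0.17, SE 0.05, edgeR adjusted p = 0.0793). Npc2, which exports cholesterol from lysosomes, had a log2 fold change of 0.10 (SE 0.07). Of 7 genes of lipoprotein triglyceride uptake tested, none had an unadjusted p under 0.05 and DESeq2 called none, and Cd36, the fatty acid transporter, had a log2 fold change of 0.02 (SE 0.06). The medians of these 4 lists lay at 0.01 to 0.03, next to 0.01 for all genes.

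None of the 5 calls held under every omission of 1 mouse, and calls over all genes ran from 50 to 826 in these fits. Without 1 mouse the adjusted p of edgeR lay between 0.0239 and 0.109 for Sorl1, 0.0247 and 0.0728 for Apoe, 0.00858 and 0.059 for Thbs2, 0.0145 and 0.0684 for Dok7, and 0.0422 and 0.0947 for Adam10. All 5 were lost without cRADΔ/Δ-MLPKO mouse 5, only Apoe remained without MLPKO mouse 5, and only Thbs2 remained without cRADΔ/Δ-MLPKO mouse 3. Dok7 and Thbs2 remained without MLPKO mouse 1 or cRADΔ/Δ-MLPKO mouse 2, Apoe and Thbs2 without cRADΔ/Δ-MLPKO mouse 4, and Apoe, Dok7 and Thbs2 without MLPKO mouse 3. Adam10 alone was lost without MLPKO mouse 2 or cRADΔ/Δ-MLPKO mouse 1, and none was lost without MLPKO mouse 4. Their directions stayed the same in the 10 fits.

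**Figure D5:**
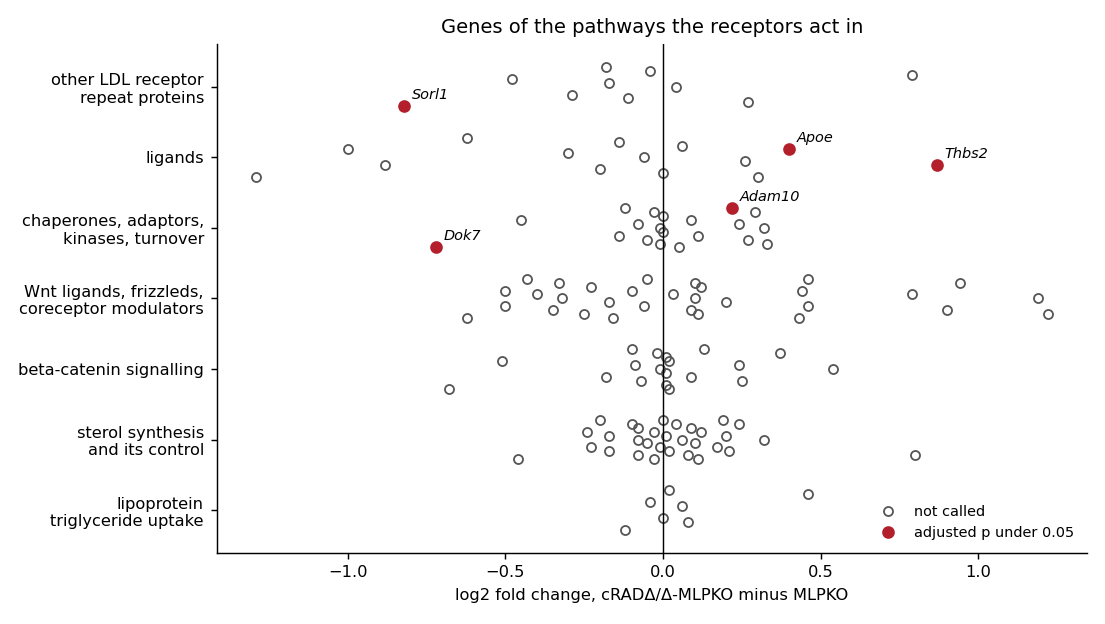
Log2 fold change (horizontal axis, cRADΔ/Δ-MLPKO minus MLPKO) of the 131 list genes tested, 1 row per list and 1 point per gene. The 5 red points are the genes called by edgeR, Sorl1 (-0.82) and Dok7 (-0.72) to the left and Adam10 (0.22), Apoe (0.40) and Thbs2 (0.87) to the right.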

How the data were processed

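Left ventricular RNA of 10 mice was measured, 5 per genotype. Alignment was by STAR against GRCm39, and the authors deposited the gene counts of featureCounts as they were, without normalization. Settings for strand, read pairs and shared reads are not given in the sources used here. Between 73.7% and 80.3% of the counts from 1 to 20 were even in each library, so the number of counts may exceed the number of fragments. The table lists 60676 genes, of which 3491 are blank in every mouse and were not analysed. GENCODE M39 on GRCm39 named 56629 of the 57185 others.

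Much as in the study's methods, a gene entered if over 10 counts were found in 6 or more of 10 mice. Genes with a Gm or Rik name were left out (13451 genes remained). The study describes leaving out non-annotated or predicted genes, whereas genes without a GENCODE name were not excluded here. The study ranked fewer genes than were tested here. edgeR 4.0.16 (R 4.3.3) normalized the counts by TMM and fitted genotype as the only term, p-values of its quasi-likelihood test being adjusted after Benjamini and Hochberg. log2 CPM used a prior count of 2. DESeq2 1.42.0, which the authors used, and limma-voom (limma 3.58.1) were alternatives. The labels give separate mice, 1 library each.

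The members and lists were chosen with earlier results of these data known. Named with values were the 9 members, Rrad and Csrp3, the called genes and the 2 with the highest mean CPM of each list, and the 5 genes with the highest Pearson r of deviations for Lrp8 and Lrp11. The genes at the loci of Lrp8 and Lrp11, the stress transcripts and the cell type markers were named besides. Intervals of counting error were not computed, and SD and SE are over mice. RefSeq promoters were of another build and were not used here.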

Additional observations from a re-analysis of the deposited data

Results flagged for a closer look

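In each genotype the highest and lowest of the 5 mice were compared with their nearest neighbour for each of the 9 members, 18 groups in all, of which chance flags about 1 in 20. A pair of groups exceeded the critical ratio of 0.71, both through MLPKO mouse 2. Lrp1 was 391 CPM in this mouse, and the next MLPKO mouse had 276 CPM (gap over range 0.725). Lrp10 was 72.6 CPM in this mouse, and the next had 65.5 CPM (gap over range 0.724). The same mouse had the highest Lrp8 and the lowest Vldlr of MLPKO, neither of them past the critical ratio. Its library was the smallest of the 10, with 33457406 counts. Its sum of 4 erythroid markers was the highest of the 10 mice, 2744 CPM against a median of 757 CPM in MLPKO. The part of either in its values was not tested. Without MLPKO mouse 2 the log2 fold change of Lrp1 was 0.23 and that of Lrp10 was -0.03.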

How the results depend on the processing

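The log2 fold changes of the 9 members moved by less than the spread between mice under each alternative (DESeq2, limma-voom, RLE and upper-quartile factors, no filter on counts, filterByExpr, predicted genes included, robust fit, replicate block, each mouse left out). Lrp8 lay between -2.68 and -2.29 and Lrp11 between -1.07 and -1.04 over the alternatives that keep all mice. Genes called numbered 369, and 1298 with DESeq2. Pathway list genes called numbered 5, and 13 with DESeq2. Of the members, limma-voom and the robust fit called 1 in place of 2, losing Lrp8 (adjusted p 0.101 and 0.0544). Leaving out 1 mouse gave 50 to 826 genes called, 1 to 3 members, 0 to 10 list genes and 4 to 5 of the 8 steps between member levels. The lowest count of genes was without cRADΔ/Δ-MLPKO mouse 5, the highest without MLPKO mouse 4, and fewer mice were fitted each time. Counts of genes called moved by over 1.5 times also without MLPKO mouse 1 (107) or 5 (57) and without cRADΔ/Δ-MLPKO mouse 2 (142), 3 (105) or 4 (100). List genes called moved as far without MLPKO mouse 1 (2), 3 (3) or 5 (1), and without cRADΔ/Δ-MLPKO mouse 2 (2), 3 (1) or 4 (2).

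Mouse numbers are shared by the genotypes but belong to different animals, and same-numbered mice did not deviate together (r -0.0423 to 0.152, 2 of 5 numbers matching best with their own). With the replicate block 281 genes, 2 members (adjusted p 0.0326 for Lrp8 and 0.016 for Lrp11) and 4 list genes were called, and the log2 fold change of Lrp8 was -2.35.

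Among other named genes, the sign of genes near 0 turned. With upper-quartile factors Crk and Ctnnb1 were 0.02, and with filterByExpr Crk was 0.0. When each mouse was left out in turn, Crk ranged from -0.03 to 0.04, Ctnnb1 from -0.02 to 0.01, Cd36 from -0.01 to 0.05, Lpl from -0.01 to 0.14, Furin from -0.11 to 0.04, Hspg2 from -0.09 to 0.08 and Btd from -0.01 to 0.06. The turns came without MLPKO mouse 2, 3 or 4 or cRADΔ/Δ-MLPKO mouse 1, 3 or 4. None of these was called under any of these settings, and the cause was not tested. Lrp8os3 rested on 1 to 36 counts per mouse and Lrp8 in cRADΔ/Δ-MLPKO on 79 to 161, which limits their precision.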
